A study of Sus scrofa with 28 samples.

Results

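The xenobiotic metabolism enzymes described here are 57 genes of the porcine array, out of 6765 gene symbols that its annotation names singly. They were taken by name from the families that oxidize, reduce, hydrolyse or conjugate foreign compounds, and each gene was represented by its probe set of highest mean signal. The cytochromes P450 (CYP) contributed 27 genes and the flavin-containing monooxygenases (FMO) 2. The aldehyde dehydrogenases (ALDH) contributed 11, the aldo-keto reductases of family 1 (AKR1) 4 and the epoxide hydrolases (EPHX) 2. Of the conjugating enzymes there were 5 cytosolic or mitochondrial glutathione transferases (GST), 2 microsomal ones (MGST), 1 UDP-glucuronosyltransferase (UGT) and 3 sulfotransferases (SULT).

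Lung RNA of 10 female swine was measured on 28 arrays, mostly 1 for each left lobe (apical, median and caudal). Air animals 28, 29 and 44 breathed air for 10 min. Low-dose animals 31, 32 and 33 received 60 µg/kg of sulfur mustard (HD) vapor, and medium-dose animals 34, 39, 41 and 42 received 100 µg/kg, over the same time. All animals of the 3 groups were anesthetized, and the labels describe the exposure through a tube with the animal on its back. Lobes were taken 12 h later. Among the medium animals, the caudal lobe of 39 and the apical lobe of 41 were not measured. The labels gave no strain, age or genotype, and each sample was whole lung tissue.

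Cytochromes P450 and FMO enzymes add oxygen to lipophilic compounds, which can detoxify them or make them reactive. Epoxide hydrolases and aldehyde dehydrogenases then remove reactive epoxides and aldehydes, and transferases attach glutathione, glucuronic acid or sulfate. In the mammalian lung much of the P450 and FMO activity lies in non-ciliated airway epithelial cells, and glutathione is a known trap for alkylating agents such as sulfur mustard.

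Signals of animals, lobes and groups are given in the arbitrary units of the array after quantile normalization. Means over all arrays, the median probe set and counts by mean level use the deposited scaled signal. An animal's value is its level over its lobes with lobe differences taken out. Differences are in log2(signal + 16), which understates the change of dim genes. Tests used limma with the animal as the replicate, and p-values were adjusted by Benjamini and Hochberg over all 23999 probe sets. The scaled signal had the same trimmed mean of 150.0 on every array, and array medians ran from 55.4 to 64.2. Of the lung markers, SFTPC of alveolar type 2 cells averaged 2929 units and HOPX of alveolar type 1 cells 2591. Of 6 hepatocyte markers measured, TTR (1.57), FGB (10.22), ALB (11.03) and SERPINA1 (11.35) were dim. The other hepatocyte markers, TF (867.8) and APOA1 (603.6), were bright, so that list was not low as a whole. An index of RNA degradation (log2 of 3′ over 5′ signal, averaged over actin and GAPDH controls) was 2.17 in medium animal 39 and 0.62 to 1.35 in the others. Medium animals averaged 1.24 and air animals 1.12 (exact permutation test, two-sided, p = 0.971). Low-dose animals averaged 0.76, which gave p = 0.3 against air and, with medium animals set against them, p = 0.286 in the same exact test. The smallest p this test allows is 0.1 for low against air and 0.0571 for the other comparisons, and the part of RNA quality in the enzyme differences was not tested.

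By their brightest probe sets, most genes of the conjugating and aldehyde-oxidizing families lay above the median probe set, and most P450 genes measured lay below it. The median probe set of the array averaged 61.5 units, and 31 of the 57 genes lay above it and 26 below. Of the P450 genes, 8 of 27 lay above it, while 8 of 11 ALDH genes, 4 of 5 GST genes, and both MGST, both FMO and both EPHX genes did. In all, 18 genes averaged under 20 units and 12 averaged over 500. No detection call was used, so a dim gene's level cannot be told from background.

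The 8 brightest came from the ALDH, FMO, MGST and EPHX families. MGST1, a membrane-bound glutathione transferase and peroxidase of the endoplasmic reticulum, averaged 1718 units over the 28 arrays. Its relative MGST3 averaged 1018. ALDH1A1, which makes retinoic acid and clears aldehydes in the cytosol, averaged 1562, and the mitochondrial acetaldehyde dehydrogenase ALDH2 averaged 1264. FMO1 averaged 1037, ALDH9A1 of carnitine synthesis 867, the fatty aldehyde dehydrogenase ALDH3A2 705 and the microsomal epoxide hydrolase EPHX1 702. Probe sets differ in how strongly they bind their target, so these are levels of probe sets and do not rank the transcripts of different genes.

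Among the P450 genes, CYP2D25, described in the pig as a vitamin D hydroxylase, had the highest mean signal at 506 units. That is the level of its brightest probe set, and its other probe set averaged 18.0. CYP7A1, the first enzyme of bile acid synthesis in liver, followed with 242, and CYP2B22 averaged 214. The aromatase gene CYP19A3 averaged 221 by its brightest probe set, while its 7 other probe sets averaged 9.63 or less, so that level rests on a single probe set. CYP1A1, the classical target of the aryl hydrocarbon receptor, averaged 7.87 and CYP2E1, the ethanol-inducible P450, 7.80. Both were close to the floor of the array in all groups. CYP1A2, CYP1B1, CYP4B1, GSTA2, GSTP1, ALDH3A1, FMO2, UGT1A6, SULT1A1 and AKR1B1 had no probe set with a single symbol and were not analysed here.

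**Figure D1:**
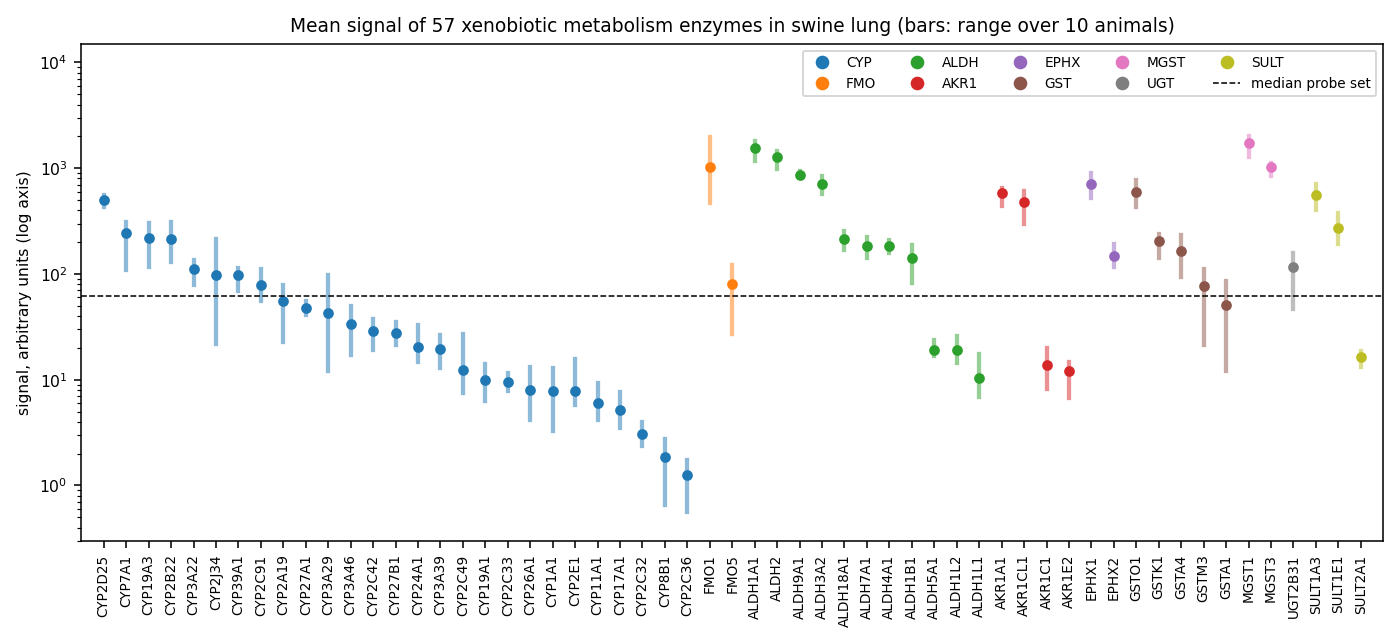
Mean deposited signal over 28 arrays (points, arbitrary units on a log axis) of the 57 genes, grouped by family. Bars give the range over 10 animals after quantile normalization, and a dashed line marks the median probe set of 61.5. ALDH, MGST, FMO and EPHX genes reach the top of the scale, and 19 of 27 P450 genes sit below the line.

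No enzyme differed between medium and air animals over the whole lung at an adjusted p under 0.05. Over all probe sets 0.129% were called in this comparison. The smallest adjusted p belonged to EPHX1, with 0.0618 in limma's test. Since these are whole-lung samples, fewer cells of a type and less RNA per cell cannot be told apart in any value that follows.

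At an unadjusted p under 0.05 there were 14 of 57 genes, 24.6%, beside 16.6% of all probe sets. Of these, 10 were lower and 4 higher in medium animals, beside 8.37% and 8.2% of all probe sets. The difference was below 0 for 39 of the 57 genes, or 68.4%, beside 50.1% of all probe sets. The median difference was −0.08 for the 57 genes and −0.0004 for all probe sets. Medium and air animals did not overlap for 10 genes (17.5%, against 13.5% of all probe sets), 7 of them lower and 3 higher in medium animals, beside 6.6% and 6.88% of all probe sets.

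EPHX1 hydrolyses epoxides formed by P450 enzymes to less reactive diols. Its signal was 549, 632, 520 and 543 in medium animals and 909, 797 and 744 in air animals. All 4 medium animals lay below every air animal. The difference was −0.53 ± 0.09 (log2, SE), 1.44-fold lower in medium animals, with a 95% interval from −0.73 to −0.33. Low-dose animals had 742, 739 and 723, between both groups, and the highest of them nearly touched the lowest air animal at 744.

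EPHX2, the soluble epoxide hydrolase that acts on fatty acid epoxides, averaged 128 ± 10.6 in medium animals (SD, n = 4) and 166 ± 32.5 in air animals (SD, n = 3). The groups overlapped, and the difference of −0.33 ± 0.13 had an adjusted p of 0.249 in limma's test. Both epoxide hydrolases were thus lower on average at the medium dose without passing the test.

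In the ALDH family, 7 of 11 genes had a difference below 0 and 4 above, and 3 of 11 had an unadjusted p under 0.05. ALDH1B1, a mitochondrial relative of ALDH2, had 115, 116, 81.7 and 101 in medium animals and 156, 157 and 149 in air animals. The groups did not overlap. The difference was −0.52 ± 0.11, with an adjusted p of 0.0868 in limma's test. ALDH2 had 1226, 1193, 987 and 977 in medium animals, against 1306, 1446 and 1362 in air animals, again without overlap. Its difference was −0.33 ± 0.09, with an adjusted p of 0.139 in limma's test.

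ALDH18A1, which makes proline precursors and is a member of the family by sequence, lay on the other side. It had 257, 242, 226 and 209 in medium animals, against 208, 167 and 190 in air animals. The groups touched but did not overlap, and the difference was 0.29 ± 0.09 (adjusted p = 0.163, limma). ALDH1A1 averaged 1469 ± 209 in medium animals (SD, n = 4) and 1615 ± 8.37 in air animals (SD, n = 3). For ALDH9A1 the difference was 0.01 ± 0.07 with a 95% interval from −0.16 to 0.18.

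Of the glutathione transferases, GSTK1 and MGST1 had the smallest p. GSTK1, found in mitochondria and peroxisomes, had 186, 167, 143 and 189 in medium animals, against 216, 237 and 199 in air animals. All medium animals were lower, with a difference of −0.32 ± 0.11 (adjusted p = 0.185, limma). MGST1 had 1742, 1431, 1338 and 1288 in medium animals and 1740, 2033 and 1653 in air animals. Medium animal 34 lay within the air range and the other 3 below it. The difference was −0.32 ± 0.11 (adjusted p = 0.203, limma).

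MGST3 averaged 933 ± 62.4 in medium animals (SD, n = 4) and 1069 ± 62.2 in air animals (SD, n = 3), without overlap and with a difference of −0.19 ± 0.08 (adjusted p = 0.258, limma). GSTO1, the omega-class enzyme that reduces dehydroascorbate, differed by 0.12 ± 0.11 and GSTA1 by −0.24 ± 0.35. GSTM3, a mu-class enzyme, differed by −0.21 ± 0.37. The intervals of GSTA1 (−1.02 to 0.54) and GSTM3 (−1.03 to 0.61) were wide and spanned 0. Neither the direction nor the size of either difference was settled with these animals.

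FMO5 and FMO1 both varied widely at the medium dose. FMO5, an FMO that acts as a Baeyer-Villiger oxygenase, had 79.5, 27.2, 28.4 and 30.6 in medium animals, against 83.9, 78.1 and 58.7 in air animals. Medium animal 34 lay among the air animals and the other 3 far below them. The difference was −0.72 ± 0.25 with an adjusted p of 0.207 in limma's test. Without animal 34 the difference was −0.99 and FMO5 passed the test (adjusted p = 0.0197, limma), as did CYP24A1. Without medium animal 39, EPHX1, CYP3A46 and ALDH1B1 passed it, and leaving out any other animal gave no call.

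Among the P450 genes 15 of 27 differences were below 0 and 12 above. CYP3A46 and CYP3A22, 2 of the 4 porcine CYP3A genes measured, went opposite ways. CYP3A46 had 50.1, 34.5, 44.3 and 45.1 in medium animals, against 17.1, 31.7 and 25.3 in air animals, a difference of 0.56 ± 0.13 (adjusted p = 0.107, limma). CYP3A22 had 96.9, 77.9, 79.9 and 96.5 in medium animals, against 111, 126 and 135 in air animals, a difference of −0.43 ± 0.13 (adjusted p = 0.150, limma). Neither pair of groups overlapped, and neither gene was called. CYP3A46 was dim, with a mean of 33.9 units, below the median probe set.

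CYP24A1, the enzyme that inactivates vitamin D, had 16.4, 25.3, 32.9 and 27.8 in medium animals, against 15, 14.8 and 16.4 in air animals. All of these are dim values, and animal 34 was again nearest to the air animals. The difference was 0.39 ± 0.12 (adjusted p = 0.170, limma). CYP2C91 had a difference of 0.39 ± 0.14 and CYP2A19, the porcine CYP2A enzyme known for degrading skatole in liver, one of −0.63 ± 0.22. The adjusted p of both was above 0.2, at 0.209 and 0.214 in limma's test.

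Of the P450 genes listed whatever their p, CYP1A1 differed by 0.04 ± 0.14 and CYP2E1 by 0.05 ± 0.12. CYP2B22 differed by 0.23 ± 0.18 and CYP3A29 by 0.24 ± 0.40. The reductase AKR1C1 differed by −0.17 ± 0.13 and FMO1 by 0.36 ± 0.43. None of these 6 had an adjusted p under 0.5, with 0.919, 0.875, 0.569, 0.811, 0.539 and 0.732 in that order in limma's test. By their brightest probe sets the 3 sulfotransferases, the 4 AKR1 genes and UGT2B31 had differences below 0, from −0.40 for UGT2B31 to −0.03 for AKR1E2, and none had an unadjusted p under 0.05. Dimmer probe sets of AKR1CL1 and UGT2B31 had the opposite sign, with 0.44 and 0.16 for AKR1CL1, whose brightest gave −0.31, and 0.40 for UGT2B31.

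**Figure D2:**
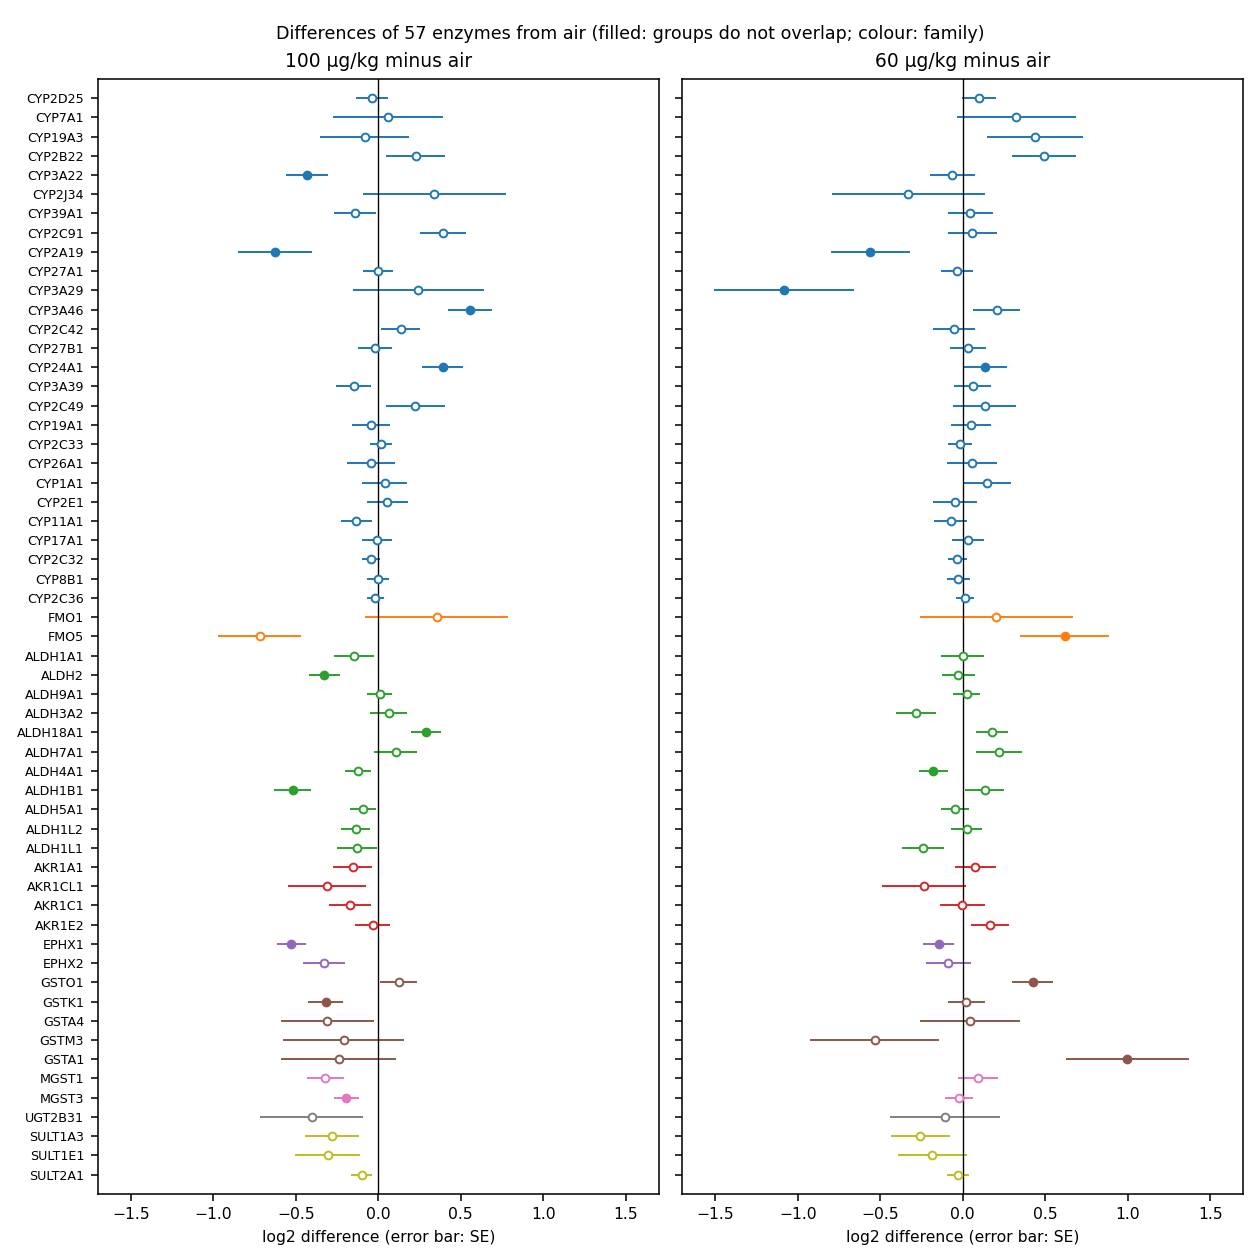
Log2 differences from air with their SE for the 57 genes in the family order of the plot of levels, for 100 µg/kg on the left and 60 µg/kg on the right; filled points mark genes whose groups do not overlap. On the left 39 of 57 lie below 0, with EPHX1 at −0.53 and CYP3A46 at 0.56, and on the right GSTA1 (1.00) and CYP3A29 (−1.08) stand farthest out.

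At the low dose no enzyme was called against air, and 0% of all probe sets were. At an unadjusted p under 0.05 there were 7 of 57 genes (12.3%, beside 7.41% of all probe sets), 4 higher and 3 lower in low-dose animals, beside 3.54% and 3.87%. The difference was below 0 for 27 of 57 genes (47.4%, beside 51.6%). The median difference was 0.02 for the 57 genes and −0.005 for all probe sets. Low and air animals did not overlap for 8 genes (14.0%, against 18.6% of all probe sets). All adjusted p-values were 0.653 or more in limma's test.

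GSTO1 had the smallest p. It had 685, 640 and 768 in low-dose animals, against 427, 569 and 561 in air animals, without overlap. The difference was 0.42 ± 0.12 (adjusted p = 0.653, limma). GSTA1, the alpha-class transferase that also reduces lipid peroxides, had 85.7, 85.8 and 79.7 in low-dose animals, against 43.9, 13.9 and 53.5 in air animals. The low-dose animals were alike and above every air animal, and the difference was 1.00 ± 0.37 (adjusted p = 0.661, limma). A second GSTA1 probe set, with a mean of 37.8, gave a difference of 0.88.

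FMO5 had 123, 118 and 121 in low-dose animals, against 83.9, 78.1 and 58.7 in air animals. The low-dose animals were again close to each other and all higher, with a difference of 0.62 ± 0.27 (adjusted p = 0.667, limma). CYP3A29 showed the opposite picture with 12.7, 13.6 and 12.0 in low-dose animals, against 19.6, 39.6 and 98.3 in air animals. Its difference was −1.08 ± 0.43 (adjusted p = 0.661, limma), and the air animals spanned most of the gene's range. The low-dose values are dim, and the gene's mean of 42.7 units lies below the median probe set.

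CYP2B22 averaged 250 ± 50.5 in low-dose animals and 174 ± 42.8 in air animals (SD, n = 3 each), with overlap. CYP2A19 averaged 45.4 ± 14.8 in low-dose animals and 73.0 ± 5.87 in air animals (SD, n = 3 each), without overlap. ALDH3A2 differed by −0.28 ± 0.12, ALDH4A1 of proline breakdown by −0.18 ± 0.09, ALDH1L1 of folate metabolism by −0.24 ± 0.13 and ALDH18A1 by 0.18 ± 0.10.

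EPHX1 differed by −0.15 ± 0.09 at the low dose, with a 95% interval from −0.36 to 0.06, and EPHX2 by −0.09 ± 0.14. Intervals around 0 were narrow for some of the bright enzymes. They ran from −0.25 to 0.20 for ALDH2, from −0.21 to 0.16 for MGST3, from −0.17 to 0.36 for MGST1 and from −0.29 to 0.29 for ALDH1A1. They were wide for FMO1 (−0.83 to 1.24), which is also bright, and for GSTM3 (−1.41 to 0.35). CYP1A1 differed by 0.15 ± 0.15, CYP2E1 by −0.05 ± 0.13 and AKR1C1 by −0.002 ± 0.135, all dim genes.

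In medium against low no enzyme was called, beside 0.00417% of all probe sets. An unadjusted p under 0.05 was reached by 13 of 57 genes (22.8%, beside 18.2% of all probe sets), 9 lower and 4 higher in medium animals, beside 8.46% and 9.76%. The difference was below 0 for 40 of 57 genes (70.2%, beside 49.3%), with a median of −0.09 against 0.003 for all probe sets. The groups did not overlap for 12 genes (21.1%, beside 13.9%).

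ALDH1B1 was lower in all medium animals than in any low-dose animal, whose signals were 169, 154 and 189. The difference was −0.65 ± 0.11 (adjusted p = 0.0878, limma). FMO5 averaged 41.4 ± 25.4 in medium animals (SD, n = 4) and 121 ± 2.59 in low-dose animals (SD, n = 3), which is 2.53-fold lower on the offset scale. The difference was −1.34 ± 0.25 (adjusted p = 0.0883, limma). GSTA1 had 47.3, 42.04, 15.01 and 12.1 in medium animals, all below the low-dose animals, with a difference of −1.24 ± 0.35 (adjusted p = 0.148, limma). Its second probe set gave −1.16.

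CYP3A29 had 81.8, 93.7, 37.4 and 31.2 in medium animals, all above the 3 low-dose animals, whose values were dim. Its difference of 1.33 ± 0.40 had an adjusted p of 0.160 in limma's test. EPHX1 differed by −0.38 ± 0.09 (adjusted p = 0.114, limma), and its medium and low-dose animals did not overlap. MGST1 differed by −0.41 ± 0.11, ALDH2 by −0.30 ± 0.09 and GSTK1 by −0.34 ± 0.11, each with all 4 medium animals below the low-dose animals. ALDH3A2 was the reverse with 0.35 ± 0.11, and CYP3A22 differed by −0.37 ± 0.13 with overlap. Without medium animal 34, 5 enzymes were called in this comparison (FMO5, ALDH1B1, MGST1, CYP24A1 and GSTA1), and with any other animal left out none was.

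The means did not follow the dose for every gene. FMO5 averaged 73.6 in air, 121 in low-dose and 41.4 in medium animals. GSTA1 averaged 37.1 in air, 83.7 in low-dose and 29.1 in medium animals. For EPHX1 the means followed the dose, with 817 in air, 735 in low-dose and 561 in medium animals. The air animals are shared by both exposure comparisons, so the differences from air are not independent of each other.

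**Figure D3:**
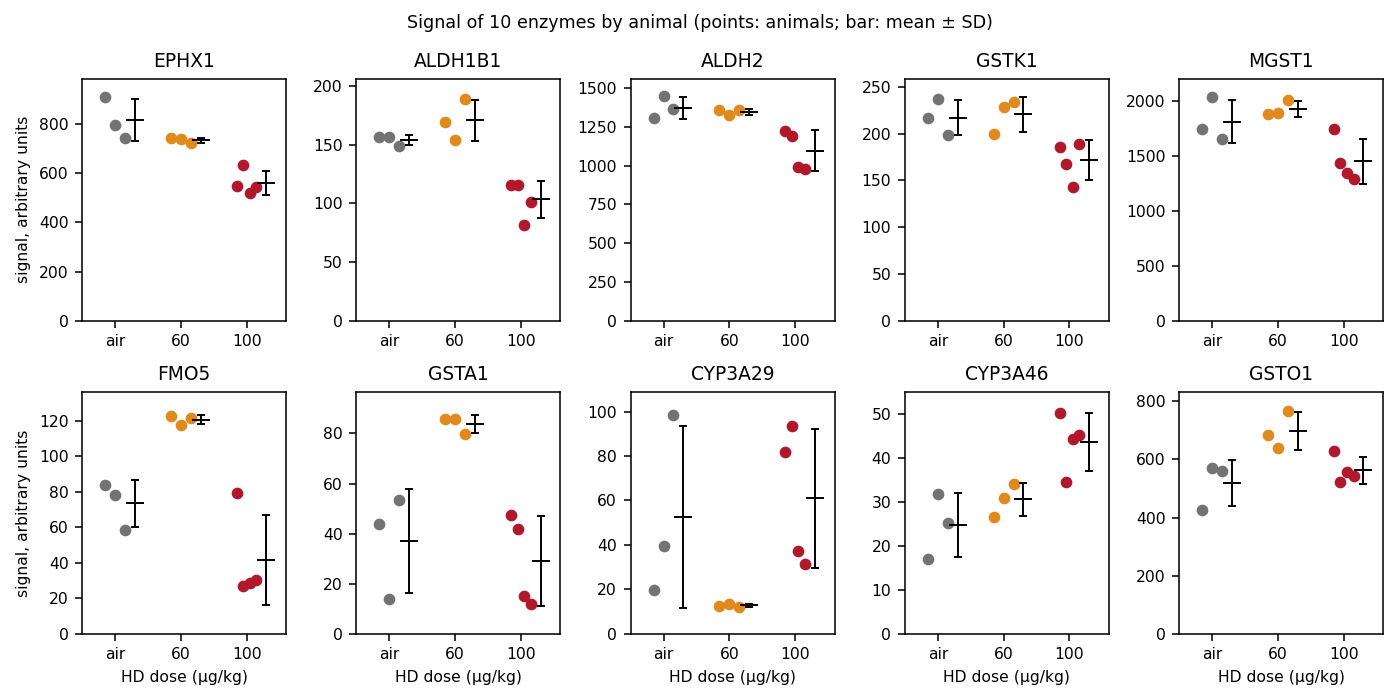
Signal (arbitrary units, axes from 0) of 10 enzymes in each animal by dose (air, 60 and 100 µg/kg), with the mean and SD of each group beside the points. EPHX1, ALDH1B1, ALDH2 and GSTK1 are lowest in all 4 medium animals, while FMO5, GSTA1 and GSTO1 are highest in the 3 low-dose animals.

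Some marker lists of other cell types had differences mostly of the same sign between these groups, with no marker called. Of 12 ciliated-cell markers listed, 6 were measured (TEKT1, SPA17, CAPSL, CAPS, ROPN1L and TPPP3), and none was at 0. All 6 had a difference below 0 in medium against air and in medium against low, beside 50.1% and 49.3% of all probe sets. All 6 had one above 0 in low against air, where 51.6% of all probe sets were below 0. At an unadjusted p under 0.05 there were 0 in medium against air. There was 1 higher in low against air and 4 lower in medium against low, beside 3.54% and 8.46% of all probe sets. Their summed signal ran from 976 to 1335 in air animals, from 1197 to 1563 in low-dose animals and from 985 to 1091 in medium animals. The medians were −0.26 for medium against air, 0.27 for low against air and −0.54 for medium against low. Of 17 airway secretory markers 8 were measured, and SCGB1A1, which marks the non-ciliated club cells, was not among them. Their summed signal ran from 2148 to 2603 in air animals, from 2279 to 3181 in low-dose animals and from 2423 to 2945 in medium animals. In medium against air 4 of the 8 were higher at an unadjusted p under 0.05, the keratins KRT18 (0.86), KRT8 (0.54) and KRT19 (0.44) and the claudin CLDN4 (0.37), beside 8.2% of all probe sets. The secreted BPIFA1 and the immunoglobulin receptor PIGR had differences of −0.73 and −0.51 without reaching that p. Of 7 smooth muscle markers 6 were measured, and 5 had a difference above 0 in medium against air, 3 of them (TAGLN, ACTG2 and CNN1) at an unadjusted p under 0.05. Their sums ran from 5933 to 7216 in air, from 7318 to 7953 in low-dose and from 7298 to 8553 in medium animals. All 6 measured markers of T and NK cells, of 8 listed, had a difference below 0 in medium against air, with sums of 1546 to 1575 in air, 1146 to 1767 in low-dose and 706 to 1364 in medium animals. For the other lists, numbers of markers above and below 0 in medium against air follow. They were 3 and 2 for alveolar type 2, 3 and 2 for alveolar type 1, and 4 and 4 for endothelial markers. Fibroblast markers had 1 and 3, macrophage markers 1 and 3, neutrophil markers 2 and 1, and hepatocyte markers 1 and 5. The signs of the ciliated markers in the other comparisons were shared. All 4 fibroblast and all 4 macrophage markers measured were above 0 in low against air and below 0 in medium against low. T and NK cell markers had 2 above and 4 below 0 in low against air. In medium against low all 6 were below 0, 4 of them at an unadjusted p under 0.05. The part of these cell types in the enzyme differences was not tested.

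Within single lobes, 1 enzyme was called. In the median lobe, EPHX1 fell at the medium dose: it averaged 567 ± 79.0 in medium animals (SD, n = 4) and 920 ± 77.2 in air animals (SD, n = 3). The difference was −0.69 ± 0.12, with an adjusted p of 0.0484 in limma's test of this lobe, where 0.404% of all probe sets were called and 0.171% were called lower. The 4 medium arrays read 621, 642, 530 and 473 and the air arrays 841, 996 and 924, so they did not overlap. ALDH1B1 came next in this lobe with −0.68 ± 0.13 and an adjusted p of 0.0527, just short of the threshold.

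The call of EPHX1 was close to the threshold. It was lost with the deposited scaling, with an offset of 1 in place of 16, and when any animal other than medium animal 34 was left out, with an adjusted p of at most 0.223 in limma's test. In the apical lobe EPHX1 averaged 608 ± 78.2 in medium animals and 805 ± 121 in air animals (SD, n = 3 each), a difference of −0.39 ± 0.14. In the caudal lobe it averaged 511 ± 15.8 in medium animals and 748 ± 177 in air animals (SD, n = 3 each), a difference of −0.51 ± 0.16. Neither was called (adjusted p = 0.808 and 0.200, limma).

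In the apical lobe the medium dose had no call, beside 0% of all probe sets. The smallest p there was that of CYP2C91, with 102 ± 7.79 in medium animals and 63.0 ± 9.70 in air animals (SD, n = 3 each) and a difference of 0.59 ± 0.16. ALDH1B1 differed by −0.27 ± 0.10 in that lobe. In the caudal lobe there was again no call, beside 0.00417% of all probe sets, and CYP3A22 led with −0.50 ± 0.13, followed by ALDH1B1 with −0.54 ± 0.16. The plot of lobe differences shows the 10 genes of smallest p over the whole lung, which were chosen on a value built from these lobe arrays, so that a shared sign across lobes is largely set by that choice.

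**Figure D4:**
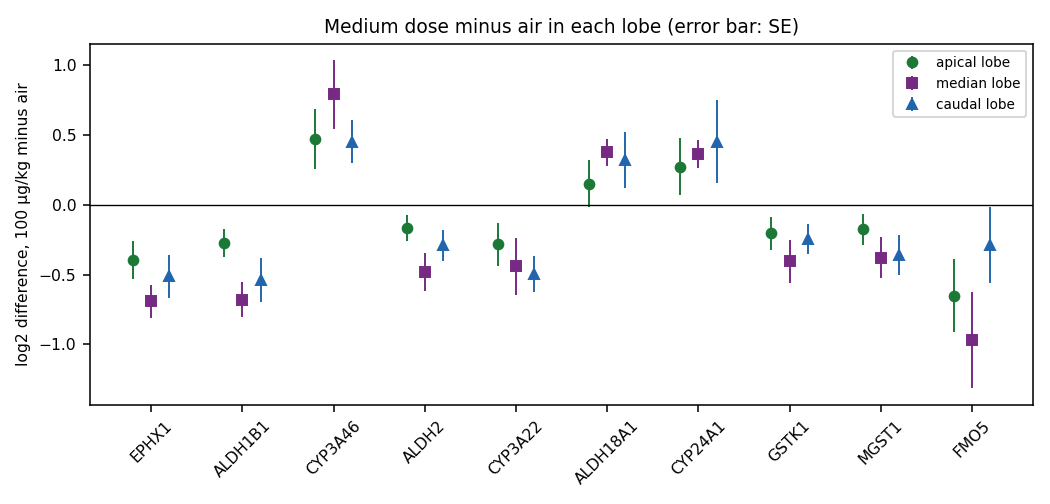
Log2 difference of medium minus air with its SE in the apical, median and caudal lobes, for the 10 genes of smallest p over the whole lung. EPHX1 in the median lobe at −0.69 is the single call, and ALDH1B1 runs from −0.27 in the apical to −0.68 in the median lobe.

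At the low dose no enzyme was called in any lobe, beside 0% of all probe sets in each of the apical, median and caudal lobes. GSTA1 led in the apical lobe, where it averaged 98.7 ± 3.54 in low-dose animals and 28.5 ± 15.8 in air animals (SD, n = 3 each), a difference of 1.43 ± 0.35. CYP2B22 and CYP2A19 followed with 0.64 ± 0.20 and −0.39 ± 0.13. In the median lobe GSTO1 differed by 0.44 ± 0.11, CYP2A19 by −1.02 ± 0.32 and EPHX1 by −0.35 ± 0.12. In the caudal lobe FMO5 differed by 0.78 ± 0.27, GSTO1 by 0.52 ± 0.18 and CYP3A29 by −1.12 ± 0.40. The smallest adjusted p in the 3 lobes was 0.672 in limma's test.

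Medium against low also had no call in any lobe, beside 0% of probe sets in the apical, 0.0208% in the median and 0% in the caudal lobe. FMO5 differed by −1.18 ± 0.26 in the apical, −1.52 ± 0.35 in the median and −1.07 ± 0.27 in the caudal lobe. ALDH1B1 differed by −0.50 ± 0.10, −0.77 ± 0.13 and −0.62 ± 0.16 in the same order. GSTA1 led in the caudal lobe with −1.54 ± 0.39, CYP3A29 differed by 1.68 ± 0.46 in the apical lobe and ALDH2 by −0.49 ± 0.14 in the median lobe. The smallest adjusted p was that of ALDH1B1 in the median lobe, 0.0523 in limma's test.

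No enzyme showed an exposure difference that differed between lobes, and 0% of all probe sets did. In limma's moderated F test of the interaction the smallest adjusted p-values were 0.675 for GSTA1, 0.679 for SULT1E1, the estrogen sulfotransferase, and 0.686 for ALDH2. At an unadjusted p under 0.05 there was 1 gene of 57, GSTA1, beside 7.39% of all probe sets. The call of EPHX1 in the median lobe therefore does not show a difference between lobes.

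Between the apical and the median lobe no enzyme was called, although 2.38% of all probe sets were, in a limma fit with the animal as a block. An unadjusted p under 0.05 was reached by 6 of 57 enzymes (10.53%, beside 16.6% of all probe sets), and 27 of 57 differences were below 0 (47.4%, beside 48.7%). ALDH18A1 had the smallest p, at 184 ± 29.7 in the apical and 237 ± 34.9 in the median lobe (SD, n = 9 each). It was lower in the apical lobe in 9 of 9 animals, by a difference of −0.34 ± 0.09 with an adjusted p of 0.0513 in limma's test. Over all probe sets 3% had the same direction in every animal with both lobes. GSTO1 differed by −0.18 ± 0.05, MGST3 by 0.11 ± 0.04, FMO1 by 0.17 ± 0.06 and ALDH2 by 0.15 ± 0.06.

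Between the apical and the caudal lobe 0 enzymes and 0.167% of all probe sets were called. An unadjusted p under 0.05 was reached by 9 of 57 enzymes (15.8%, beside 13.6%), 8 higher and 1 lower in the apical lobe, beside 6.77% and 6.81% of all probe sets. The difference was below 0 for 17 of 57 enzymes (29.8%, beside 51% of all probe sets) and above 0 for 40, with a median of 0.05 against −0.002 for all probe sets. FMO5 was higher in the apical lobe in 8 of 8 animals, with 96.6 ± 33.2 in the apical and 68.2 ± 30.7 in the caudal lobe (SD, n = 8 each). The difference was 0.40 ± 0.13 (adjusted p = 0.168, limma). ALDH2 and GSTK1 were also higher in the apical lobe in 8 of 8 animals, by 0.16 ± 0.06 and 0.15 ± 0.06. Over all probe sets 2.85% had the same direction in every animal with both lobes. These genes were named for their small p in the same arrays, which favors a shared direction. ALDH18A1 differed by −0.27 ± 0.09 and EPHX2 by 0.16 ± 0.06.

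Between the median and the caudal lobe neither an enzyme nor any other probe set was called (0%), while 4 of 57 enzymes (7.02%) and 11.6% of all probe sets had an unadjusted p under 0.05. The difference was below 0 for 23 of 57 enzymes (40.4%, beside 52.5%). CYP2B22 averaged 179 ± 35.9 in the median and 263 ± 107 in the caudal lobe (SD, n = 9 each), a difference of −0.45 ± 0.15 (adjusted p = 0.248, limma). FMO5 differed by 0.38 ± 0.13, CYP3A22 by 0.19 ± 0.08, CYP2C91 by −0.17 ± 0.08 and the dim CYP2C33 by 0.16 ± 0.05. FMO5 was thus lowest in the caudal lobe in both comparisons with it.

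Several enzymes varied widely between animals of the same group. The median SD between animals of a group was 0.17 (log2) for the 57 genes and 0.15 for all probe sets. The median SD between lobes of an animal was 0.17 for the 57 genes and 0.16 for all probe sets. CYP2J34 had the largest animal SD, 0.66, above that of 99.5% of all probe sets. FMO1 followed with 0.66, CYP3A29 with 0.61, GSTM3 with 0.56 and GSTA1 with 0.53. In CYP2J34, FMO1, CYP3A29 and GSTM3 the SD between lobes was 0.13 to 0.21, so the lobes of an animal read alike.

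CYP2J34 belongs to a family that in other mammals forms epoxides of arachidonic acid. Its signal was 95.4, 95.9 and 68.9 in air animals, 132, 79.1 and 22.0 in low-dose animals and 215, 88.2, 101 and 82.5 in medium animals. Low-dose animal 33 was lowest, with 26.8, 12.0 and 29.8 in its apical, median and caudal lobes. Medium animal 34 was highest, with 266, 206 and 180 in the same lobes. The other 8 animals lay between 68.9 and 132.

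FMO1, the FMO that dominates in the liver of pigs, had 922, 898 and 694 in air animals, 1053, 756 and 1109 in low-dose animals and 794, 470, 1979 and 1744 in medium animals. Medium animals 41 and 42 were above every other animal and medium animal 39 was below every other animal. Each lobe of animal 41 read 1875 or more, and each lobe of animal 42 read 1636 or more. The highest array of any other animal read 1259.

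GSTM3 had 111, 55.1 and 102 in air animals, 61.4, 21.3 and 106 in low-dose animals and 70.8, 62.7, 58.6 and 103 in medium animals. Low-dose animal 32 was lowest with 26.1, 20.9 and 17.3 in its apical, median and caudal lobes. CYP3A29 ran from 12.0 in low-dose animal 33 to 98.3 in air animal 44. Air animals 28, 29 and 44 read 17.1 to 23.7, 36.9 to 42.1 and 90.2 to 108 over their lobes, with no overlap between animals.

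**Figure D5:**
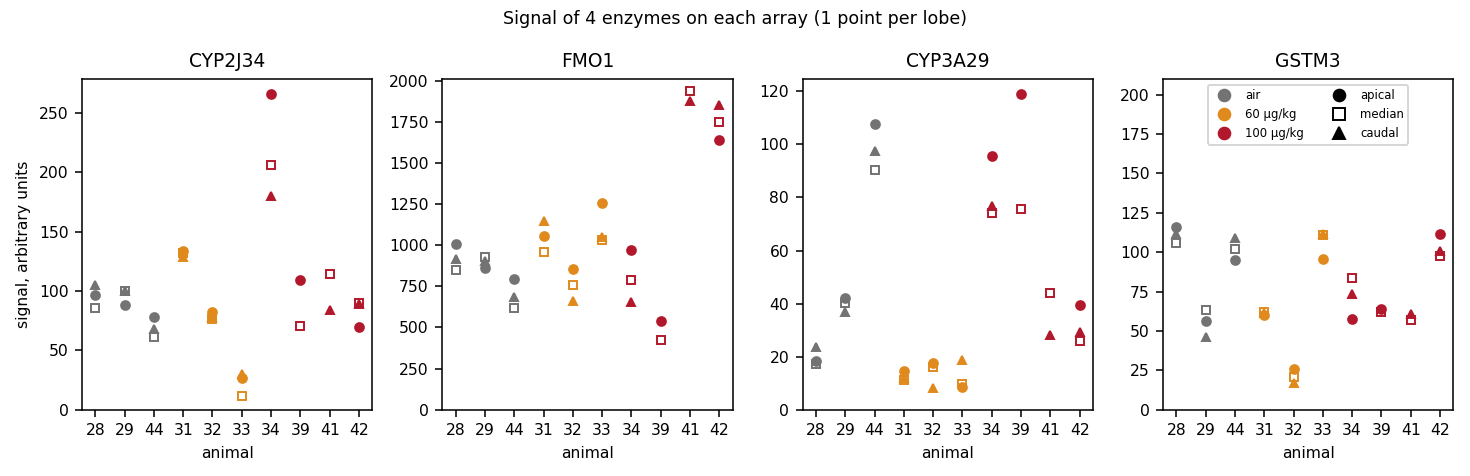
Signal (arbitrary units, axes from 0) of CYP2J34, FMO1, CYP3A29 and GSTM3 on each array, with 1 column per animal, colour for dose and marker shape for lobe. The lobes of an animal mostly lie closer together than the animals do, and animals of a dose are spread apart, as for FMO1 in medium animals 39 and 41.

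Of the 17 genes with more than 1 probe set, 10 had at least 1 further probe set whose medium against air difference had the opposite sign to the brightest one. The counts of differences below 0 therefore hold for the brightest probe sets. For ALDH1A1 a second probe set at 419 units differed by −0.60 for medium against air and 0.48 for low against air, while the brightest differed by −0.15 and −0.001. For UGT2B31 a second probe set at 68.1 units gave 0.40 for medium against air, the opposite sign of the brightest with −0.40. Neither probe set of either gene was called.

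Genes that serve these enzymes were listed by role, and 39 of the 76 were measured. None was called in medium against air, low against air or medium against low. In medium against air 4 of the 39 were higher and 6 lower at an unadjusted p under 0.05, beside 8.2% and 8.37% of all probe sets. In low against air 2 were higher and 1 lower, beside 3.54% and 3.87%, and in medium against low 0 were higher and 7 lower, beside 9.76% and 8.46%. In medium against air PAPSS2, which makes the sulfate donor of sulfotransferases, had the smallest p of the 39, with 0.64 ± 0.12 (adjusted p = 0.0717, limma). It differed by 0.38 ± 0.12 in low against air. INMT, a methyltransferase of small amines that is abundant in lung, differed by 1.16 ± 0.34 in medium against air.

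The redox partners of P450 enzymes gave values of both signs. The reductase POR differed by 0.04 ± 0.10 in medium against air, while cytochrome b5 (CYB5A) differed by −0.39 ± 0.12 and the heme-binding PGRMC1 by −0.23 ± 0.07. Of the regulators, the aryl hydrocarbon receptor AHR differed by −0.19 ± 0.14, RXRA by −0.27 ± 0.07 and HNF4A by 0.43 ± 0.12. RXRA and HNF4A were dim, with means of 30.4 and 25.6 units, below the median probe set. In the supply of glutathione, GCLM, the modifier subunit of the first enzyme, differed by 0.28 ± 0.12 and the catalytic subunit GCLC by −0.06 ± 0.11. The quinone reductase NQO1, a target of NFE2L2, differed by 0.25 ± 0.19. SLC35B2, GSTZ1 and ABCB1 were the other 3 at an unadjusted p under 0.05, all below 0. In apical against median lobe 2 of the 39 were called, both higher in the apical lobe (1.4% of all probe sets were), MAOB by 0.20 ± 0.04 and the efflux pump ABCB1 by 0.26 ± 0.06 (adjusted p = 0.0277 and 0.0287, limma).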

How the data were processed

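Each array of 28 gave 24123 probe sets. The deposited values are linear signal intensity, scaled by the authors so that the 2% trimmed mean is 150.0 on every array, as the values show. The summarization software and detection calls are not given in the sources used here. Signal was computed further as log2(signal + 16), quantile normalized over 23999 probe sets without 124 controls, of which 10069 had 1 gene symbol, 198 several and 13732 none in the table used.

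A model with animal and lobe terms gave 1 value per animal. limma 3.58.1 in R 4.3.3 (lmFit, eBayes) compared the 3 groups of animals in 1 fit, over the whole lung and in each lobe, with Benjamini-Hochberg adjustment over 23999 probe sets and a threshold of 0.05. Lobes were compared with the animal as a fixed block, since an animal's lobes share its number in the labels. The alternative run with a random animal effect, for the exposure comparisons, used a consensus correlation of 0.334 between lobes of an animal. Scripts ran in Python 3.11.15 and were tested on simulated data. Printed signals of animals, lobes and groups are normalized values turned back from log2, and the number of animals limits their precision. Means over all arrays are those of the deposited signal.

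The genes and lists were chosen with earlier results of these data known. Named were called genes, else those of smallest p (10 per exposure comparison, 5 per lobe comparison, 3 within a lobe or for the interaction), a fixed set of 25 enzymes and the 8 brightest. CYP2J34, CYP2D25, CYP7A1, CYP19A3 and the further genes named in the text, second probe sets and partner genes were chosen after their values were seen. Alternatives were the deposited scaling, an offset of 1, only probe sets above the median signal, averaged probe sets, a random animal effect, only the 2 groups compared, no animal block, only air animals for lobes, and each animal left out. In all, 7 probe sets naming several of the enzymes were left out. RefSeq gene tables held 56 of the 57 genes under the same symbol.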

Additional observations from a re-analysis of the deposited data

Results flagged for a closer look

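In groups of 4 animals, a gap to the nearest animal above 0.829 of the group's range marks a single animal as far from the others, which chance does in about 1 in 20 groups. Only 26 such groups were tested, not those of all 57 enzymes, and 2 met it. For FMO5, medium animal 34 read 79.5 units while the other 3 medium animals read 27.2 to 30.6. For CYP2E1, medium animal 41 read 15.8 units while the other 3 read 5.77 to 7.06, all of them dim values.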

How the results depend on the processing

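Of 93 named differences, 82 kept their sign under every alternative run and 11 reversed under at least one. The call of EPHX1 in the median lobe was lost with the deposited scaling (0 enzymes called) and with an offset of 1 (0), and 2 were called among probe sets above the median signal and with averaged probe sets. Leaving out 1 animal gave 0 to 2 there. For medium against air over the whole lung, 0 enzymes were called, against 1 above the median signal (EPHX1), 5 with a random animal effect and 0 to 3 with 1 animal left out. For medium against low it was 0, against 9 with a random animal effect and 0 to 5 with 1 animal left out, and in its median lobe 1 above the median signal and 0 to 4, in its caudal lobe 0 to 1, with 1 animal left out. Over all probe sets the random effect called 1044 for medium against air, where 31 were called, and 1401 for medium against low, where 1 was. With only the 2 groups compared, medium against air called 1 probe set, and leaving out 1 animal called 0 to 391. For apical against median lobe 2 enzymes were called above the median signal, 1 with averaged probe sets and 0 to 1 with 1 animal left out, and for apical against caudal 0 to 1. The cause of these shifts was not tested, beyond fewer genes tested above the median signal.

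Without the replicate block, 0 enzymes were called in each of the 3 lobe comparisons, and 39, 1 and 0 probe sets in place of 570, 40 and 0; ALDH18A1 then differed by −0.33 between apical and median lobe.

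Signs turned for small differences. CYP2E1 in medium against air was −0.0167 with an offset of 1. In low against air, ALDH4A1 was 0.11 and ALDH1A1 0.24 with averaged probe sets, and AKR1C1 was 0.0442 with the deposited scaling. With 1 animal left out, medium against air ran from −0.0771 to 0.17 for CYP1A1, −0.0700 to 0.10 for CYP2E1, −0.15 to 0.69 for CYP3A29, −0.61 to 0.0075 for GSTA1 and −0.0070 to 0.19 for GSTO1. Low against air ran from −0.24 to 0.0220 for EPHX2, −0.0733 to 0.0166 for MGST3, −0.0852 to 0.0869 for ALDH1A1, −0.0601 to 0.0126 for ALDH2 and −0.12 to 0.0797 for AKR1C1. Dim enzymes such as CYP1A1 and CYP2E1 lie near background, which limits what their differences show.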
